A study of Schizosaccharomyces pombe with 2 samples.

Results

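On the tiling arrays used for this study, 631 tiles on the arms of the 3 chromosomes of the fission yeast Schizosaccharomyces pombe carry a suffix, f or m, after the chromosome and position in their name. They were taken from 35973 arm tiles and 41240 usable chromosome tiles. An arm tile lies over 200 kb from the first and last tile of its chromosome and outside the centromeric and mating-type intervals. The sources used here do not say what f and m stand for, so the sequence under these tiles was checked against the reference genome before any value was read. There were 368 f tiles and 263 m tiles, which fell into 245 loci, a locus being a run of suffixed tiles under 1000 bp apart. Of these loci 141 held 1 tile and 41 held 5 or more, 157 held f tiles alone, 65 held m tiles alone and 23 held both. The set they are compared with is the 6606 arm tiles without a suffix that lie within 5 kb of a suffixed tile, out of 35342 unsuffixed arm tiles.

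Each strain was measured on 1 two-colour array. The sap1-1 strain is cdc10-v50 sap1-1, and the strain called wild-type is cdc10-v50 alone. Both have the 972h background, the thymidine kinase module Pnmt1-TK and the nucleoside transporter module Padh1-hENT. Both cultures were grown at 26 °C, arrested at 35 °C for 4 h, and returned to 26 °C in medium holding 200 µM BrdU and 10 mM hydroxyurea, until 0.1% sodium azide stopped them. BrdU-labelled DNA, precipitated with an antibody, carried Cy5, and the input, DNA from whole-cell extract, carried Cy3, both after random-primed PCR. All values below are log2 of Cy5 over Cy3 (the ratio) or log2 of Cy3 alone (the input), centred on the median of all chromosome tiles of the array. With 1 array per strain there is no replicate, no test was run, and a difference between the arrays is a difference between 2 cultures. No suffixed tile was saturated or failed the scanner's test for signal well above background in either channel of either array.

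BrdU marks DNA made after release, and hydroxyurea, which limits the supply of deoxynucleotides, keeps that synthesis close to the origins that fired. The sequences that fission yeast carries in many copies include the Tf2 retrotransposons, which move through an RNA copy and are flanked by long terminal repeats (LTRs), single LTRs left behind by such elements, and the wtf genes, a family of meiotic drivers that kill spores which do not inherit them. Many genes of the translation machinery are also present as near-identical pairs. Sap1 is an essential DNA-binding protein that blocks replication forks in one direction at its sites in the ribosomal DNA and in Tf2 LTRs. A probe for a repeated sequence binds labelled fragments from every copy, so its signal is a sum over places in the genome that may replicate at different times.

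The repeats under these tiles differ in how alike their copies are, as the following sequences show. They were read from the RefSeq assembly ASM294v3 by its own annotation, 5′ to 3′ on the strand of the feature, since the files hold no probe sequences. The coordinates are those of ASM294v3, whereas the tile numbering of the array runs up to 4360 bp away from it.

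The first 3 are the 60-base words with most exact copies in a Tf2 element, in a single LTR on the arms and in the wtf genes. The Tf2 word, from the reading frame of Tf2-4 (chrI:3363625-3363684, minus strand), occurs 14 times in the 3 chromosomes. The LTR word (chrI:397118-397177, minus strand) occurs 64 times, at intergenic LTRs and at the ends of Tf2 elements. The wtf word, from wtf4 (chrIII:222849-222908, minus strand), occurs 12 times.
Tf2-4: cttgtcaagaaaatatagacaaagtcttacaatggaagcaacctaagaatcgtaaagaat
LTR: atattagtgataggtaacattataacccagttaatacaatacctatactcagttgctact
wtf4: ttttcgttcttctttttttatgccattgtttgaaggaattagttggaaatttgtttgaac

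Duplicated genes range from identical to diverged. The middle of tef101 (chrIII:268760-268819, minus strand), a gene for translation elongation factor 1 alpha, is shared letter for letter with tef102 and tef103, and the 3 reading frames of 1383 bases are 98.6% to 98.9% identical. The Hsp70 chaperone genes ssa1 (chrI:2296758-2296817, minus strand) and ssa2 (chrIII:2058179-2058238, plus strand) differ at 13 of 60 bases over the same stretch, and capitals mark these bases.
tef101: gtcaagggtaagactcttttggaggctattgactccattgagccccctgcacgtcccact
ssa1: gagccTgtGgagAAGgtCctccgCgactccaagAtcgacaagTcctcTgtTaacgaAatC
ssa2: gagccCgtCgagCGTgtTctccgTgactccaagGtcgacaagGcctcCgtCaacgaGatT

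Other suffixed tiles lie on genes that repeat within themselves. SPBPJ4664.02 (chrII:693616-693675, plus strand), a gene for a glycoprotein, holds a 60-base word that occurs 35 times in the 3 chromosomes. The polyubiquitin gene ubi4 encodes ubiquitin units head to tail, each of 228 bases. Its first unit (chrII:1045507-1045566, minus strand) and second unit (chrII:1045279-1045338, minus strand) differ at the 10 capitals among their first 60 bases, and the units are 93.4% identical.
SPBPJ4664.02: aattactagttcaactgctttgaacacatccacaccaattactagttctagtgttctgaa
ubi4 unit 1: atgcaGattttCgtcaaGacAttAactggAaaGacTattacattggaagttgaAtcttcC
ubi4 unit 2: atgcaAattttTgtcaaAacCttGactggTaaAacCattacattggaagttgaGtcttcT

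The reference bore out that suffixed tiles lie on repeated sequence. Tiles were placed on ASM294v3 by sliding the GC content of 300-bp windows along the input signal, and each window was searched for other stretches of at least 100 bp at 80% identity. Such a match was found for 90.8% of f tiles and 99.2% of m tiles, against 1.04% of unsuffixed arm tiles, or 366 of them. The match elsewhere was typically closer and more frequent for m tiles. Their best match over 10 kb away had a median identity of 99.6%, with a median of 13 other places, and the f tiles had 92.7% and 1 other place. Counted as 30-base words, an m window occurred a median of 10.6 times and an f window 1.24 times. For 44 m tiles and 39 f tiles the only match lay within 10 kb, as it does in genes such as SPBPJ4664.02. No match was found for 34 f tiles and 2 m tiles. The f tiles were also richer in GC, with a median of 42.5%, against 34.3% in m tiles and 36.3% in unsuffixed arm tiles.

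The classes of sequence were divided unevenly between the suffixes. All 86 suffixed tiles on Tf2 elements were m tiles, and all 92 on ribosomal protein genes were f tiles. Single LTRs had 48 m and 19 f tiles, and wtf genes 51 m and 44 f tiles. The 17 tiles on hexose transporter genes, 13 on translation factor genes, 10 on heat shock genes, 7 on histone genes and 6 on glycolytic genes were all f tiles. The tiles under no listed class, on other protein-coding genes, numbered 133 f and 51 m.

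The input signal was higher at suffixed than at unsuffixed tiles on both arrays. Relative to unsuffixed tiles within 5 kb, the input of m tiles was higher by a median of 2.70 (95% order-statistic interval of the median over tiles, 2.53 to 2.88) in sap1-1 and 2.61 (2.42 to 2.75) in wild-type. The f tiles stood higher by 1.19 (0.98 to 1.39) in sap1-1 and 1.17 (1.08 to 1.37) in wild-type. These intervals cover the spread over tiles only, and copies of a sequence are not independent of each other. At least 2-fold above neighbours were 227 of 263 m tiles and 202 of 368 f tiles in sap1-1, and 226 and 210 in wild-type, while 16.3% and 17.3% of all arm tiles passed this limit in sap1-1 and wild-type. Corrected for GC content, the f excess was 0.54 in sap1-1 and 0.60 in wild-type.

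The input of m tiles increased with copies of the sequence from 1.5 copies upward. Tiles with 1.5 to 2.5 copies (36 m tiles) had a median input excess of 1.36 in sap1-1 and 1.29 in wild-type. Those with 2.5 to 5 copies (55) had 2.20 and 2.17, those with 5 to 10 copies (22) had 2.67 and 2.59, those with 10 to 20 copies (89) had 2.91 and 2.78, and those with over 20 copies (45) had 3.26 and 3.06. The 12 m tiles with fewer than 1.5 copies do not follow this order, at 2.40 in sap1-1 and 2.23 in wild-type. The 94 f tiles whose words occur once stood 1.17 above neighbours in sap1-1 and 1.19 in wild-type. Of these, 64 still had a less exact match by the search above. The 34 f tiles with no match stood higher by 0.84 (0.07 to 1.55) in sap1-1 and 1.02 (-0.09 to 1.58) in wild-type. Median GC content of the 94 tiles was 44.7%. Unsuffixed tiles of 44% to 48% GC had a median input of 0.93 on both arrays. The part of base composition in these values was not tested. On Tf2 elements, with a median of 13.1 copies, input was 7.79-fold that of neighbours in sap1-1 and 7.77-fold in wild-type. Of unsuffixed tiles whose windows hold over 20 copies there were 23, and their input lay below that of their neighbours, by a median of -0.57 in sap1-1 and -0.67 in wild-type, so a repeat in the window is not by itself accompanied by a bright spot.

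**Figure D1:**
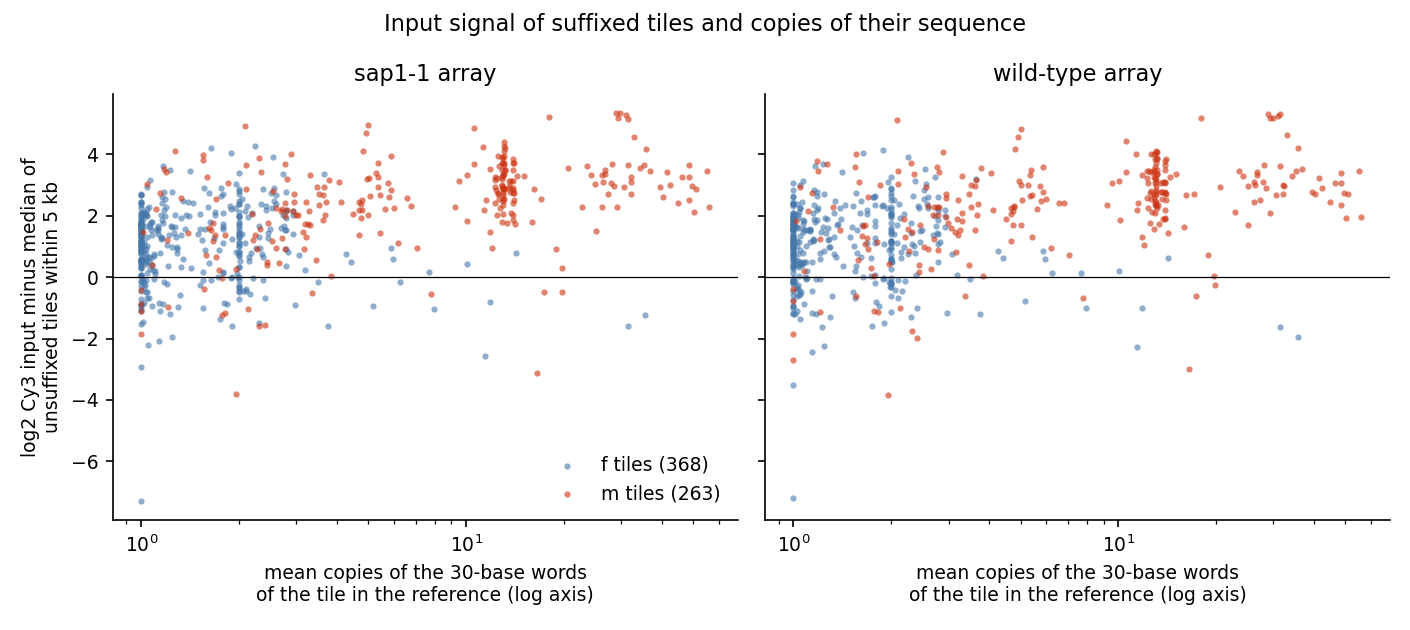
Input (Cy3) of each f tile (blue) and m tile (red) minus the median of unsuffixed tiles within 5 kb, in log2, against the mean number of copies of its 30-base words in the reference on a log axis, with the sap1-1 array left and the wild-type array right. The m tiles with 10 to 20 copies sit around 2.91 in sap1-1 and 2.78 in wild-type, and the f tiles lie mostly below 2.5 copies.

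The BrdU ratio of m tiles varied little with their surroundings, unlike that of f tiles and of single-copy sequence. The m tiles had a median ratio of 1.06 (quartiles 0.58 and 1.29) in sap1-1 and 1.07 (0.67 and 1.32) in wild-type, and the medians of their neighbours were centred on -0.09 and -0.03. The f tiles had 0.06 (-0.89 and 1.02) in sap1-1 and 0.26 (-0.79 and 1.07) in wild-type, near their neighbours at 0.19 and 0.24. Across tiles, Pearson's r between a tile's ratio and its neighbours' median was 0.11 in sap1-1 and 0.12 in wild-type for the 263 m tiles. It was 0.47 and 0.62 for the 368 f tiles, and 0.63 and 0.85 for all unsuffixed arm tiles. These correlations are descriptions over tiles that share arrays and, for m tiles, sequence. Without the Tf2 tiles, r of m tiles was 0.33 in sap1-1 and 0.31 in wild-type.

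Tile by tile, the ratio of m tiles exceeded that of their neighbours by a median of 0.78 (0.63 to 1.03) in sap1-1 and 0.73 (0.49 to 1.02) in wild-type. For f tiles this local excess was -0.17 (-0.34 to 0.02) in sap1-1 and -0.16 (-0.29 to -0.03) in wild-type. At least 2-fold above neighbours were 116 m and 47 f tiles in sap1-1 and 117 m and 50 f tiles in wild-type, beside 15.7% of all arm tiles in sap1-1 and 6.38% in wild-type. At least 2-fold below were 36 m and 95 f tiles in sap1-1 and 28 m and 62 f tiles in wild-type, beside 18.3% and 5.89% of all arm tiles. The size and even the sign of the m excess depended on how signal strength was treated. A loess fit of ratio on intensity within each array, which pulls the ratios of bright spots to 0, gave -0.31 in sap1-1 and -0.52 in wild-type, whereas r with neighbours stayed at 0.11 and 0.14.

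Base composition was associated with the ratio among single-copy tiles. Unsuffixed tiles of 30% to 33% GC had a median ratio of 0.38 in sap1-1 and 0.28 in wild-type, and those of 48% to 52% GC had -0.83 and -0.74. Within 30% to 33% GC the 64 m tiles stood at 1.14 in sap1-1 and 1.26 in wild-type. The 39 f tiles of that GC content stood at 1.04 in sap1-1 and 0.92 in wild-type, also above the unsuffixed tiles. Within 44% to 48% GC, the sap1-1 medians were -0.61 for 18 m tiles, -0.60 for 88 f tiles and -0.65 for unsuffixed tiles. The wild-type medians there were -0.18 for m, -0.37 for f and -0.55 for unsuffixed tiles. Within 48% to 52% GC the 59 f tiles, at -0.64 and -0.72, lay close to the unsuffixed tiles. With the GC trend taken out, the f excess was 0.17 in sap1-1 and 0.072 in wild-type, and the m excess 0.59 and 0.62.

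Unsuffixed tiles of like brightness read differently from m tiles. Among unsuffixed arm tiles whose input lay within the quartiles of the m tiles on both arrays (791 tiles), the median ratio was -0.39 in sap1-1 and -0.31 in wild-type, and r with neighbours 0.64 and 0.80. The 123 m tiles of that brightness had medians of 1.14 in sap1-1 and 1.09 in wild-type, and r of 0.15 and 0.067. The m tiles of this comparison had a median GC content of 34%, against 42.7% in the unsuffixed tiles, and the part of base composition was not tested.

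The m tiles comprised 2 kinds that read very differently. The 217 with a match over 10 kb away had a median ratio of 1.14 in sap1-1 and 1.15 in wild-type, around neighbours at -0.25 and -0.06. The 44 whose only match lay within 10 kb had -1.57 in sap1-1 and -1.27 in wild-type, below neighbours near 0. Of these 44, 0 lay above their neighbours in sap1-1 and 3 in wild-type. Across tiles, r with neighbours was 0.64 in sap1-1 and 0.51 in wild-type for the second kind, against 0.15 and 0.22 for the first. The 44 tiles fall in 12 loci and the 217 in 75. Tiles of a locus share surroundings, so r of the second kind rests on few genes. Median GC content of the second kind was 44.2%, against 34% for tiles matched elsewhere, and the part of base composition in the difference was not tested.

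**Figure D2:**
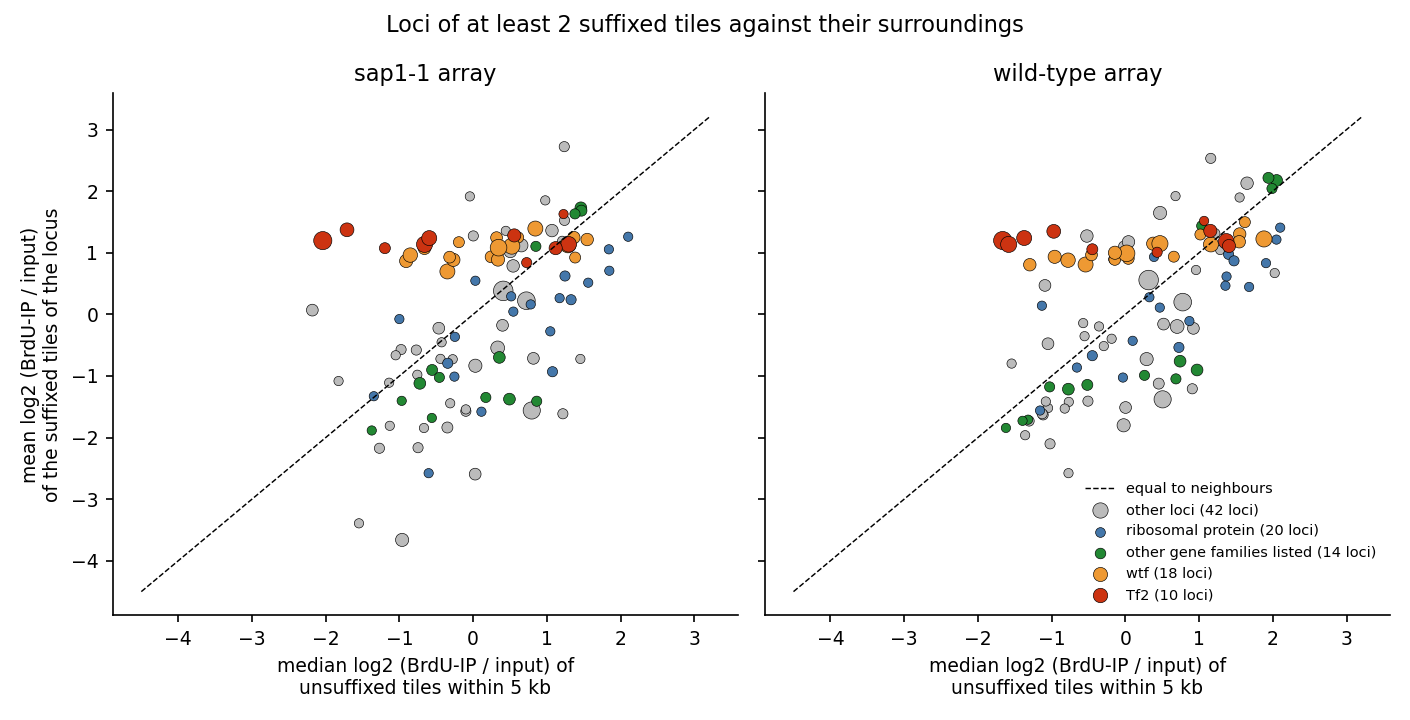
Mean log2 ratio of the suffixed tiles of each locus of at least 2 tiles (vertical) against the median log2 ratio of unsuffixed tiles within 5 kb (horizontal), sap1-1 left and wild-type right; larger points hold more tiles and the dashed line marks equality. The 10 Tf2 loci (red) and 18 wtf loci (orange) lie in a band near 1, from 0.70 to 1.63 in sap1-1 and 0.81 to 1.52 in wild-type, while ribosomal protein genes (blue) spread over a wider range.

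Tf2 elements gave the clearest level. Across the 10 Tf2 loci of at least 2 tiles, means ran from 0.84 to 1.63 (median 1.17) in sap1-1 and from 1.01 to 1.52 (median 1.19) in wild-type. The medians of their neighbours ran from -2.04 to 1.29 in sap1-1 and from -1.66 to 1.41 in wild-type. The SD between loci was 0.21 in sap1-1 and 0.15 in wild-type, against 1.27 and 1.28 between their surroundings.

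Tf2-4, with 16 tiles the best covered element (from position 3362100 of chromosome I in the array's numbering), had ratios with lowest 0.60, median 1.16 and highest 1.87 in sap1-1, and 0.68, 1.12 and 1.79 in wild-type. Its mean was 1.20 ± 0.38 in sap1-1 and 1.20 ± 0.35 in wild-type (SD over 16 tiles), and its neighbours stood at -2.04 and -1.66. All 16 tiles were above these surroundings on both arrays. Tf2-5, with 11 tiles, averaged 1.14 ± 0.28 in sap1-1 and 1.19 ± 0.21 in wild-type, amid neighbours at 1.29 and 1.37. The tile values of Tf2-4 and Tf2-5 overlapped on both arrays, although Tf2-4 lies in BrdU-poor and Tf2-5 in BrdU-rich surroundings.

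Other elements gave similar means. Tf2-3 (8 tiles) averaged 1.37 ± 0.24 in sap1-1 and 1.35 ± 0.24 in wild-type beside neighbours at -1.71 and -0.97. Tf2-8 (12 tiles) averaged 1.14 ± 0.27 in sap1-1 and 1.14 ± 0.20 in wild-type beside neighbours at -0.66 and -1.58. Tf2-12 (10 tiles) averaged 1.24 ± 0.42 in sap1-1 and 1.24 ± 0.39 in wild-type beside neighbours at -0.60 and -1.37. Tf2-3 had the highest mean of these 3 on both arrays, with the poorest surroundings of the 3 in sap1-1 and the least poor in wild-type. Tf2-6 (7 tiles) averaged 1.07 ± 0.26 in sap1-1 and 1.11 ± 0.24 in wild-type, and Tf2-9 (7 tiles) averaged 1.28 ± 0.28 and 1.36 ± 0.31. Pooled over each locus, their surroundings lay between 0.56 and 1.41. Those of Tf2-6 changed along the element, since the neighbours of its single tiles ran from -0.63 to 1.81 in sap1-1 and from 0.61 to 2.02 in wild-type. The first run of tiles on Tf2-1 (4 tiles) averaged 1.07 ± 0.22 in sap1-1 and 1.06 ± 0.25 in wild-type, beside -1.20 and -0.45.

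Among Tf2 tiles, the ratio varied with position within the element. In 500-bp steps from the start codon, taken over all elements, the median ratio was highest between 2000 and 2500 bp, at 1.62 in sap1-1 and 1.51 in wild-type (9 tiles on 8 elements). It was lowest between 3500 and 4000 bp in sap1-1, at 0.80 (7 tiles on 4 elements), where wild-type had 1.10. In wild-type the lowest step was 500 to 1000 bp, at 1.04, where sap1-1 had 1.11. The SD of the step medians was 0.24 in sap1-1 and 0.17 in wild-type, and the SD of element means 0.16 and 0.15. The median GC content of these steps lay between 31.8% and 36%, and was 36% in the highest step.

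**Figure D3:**
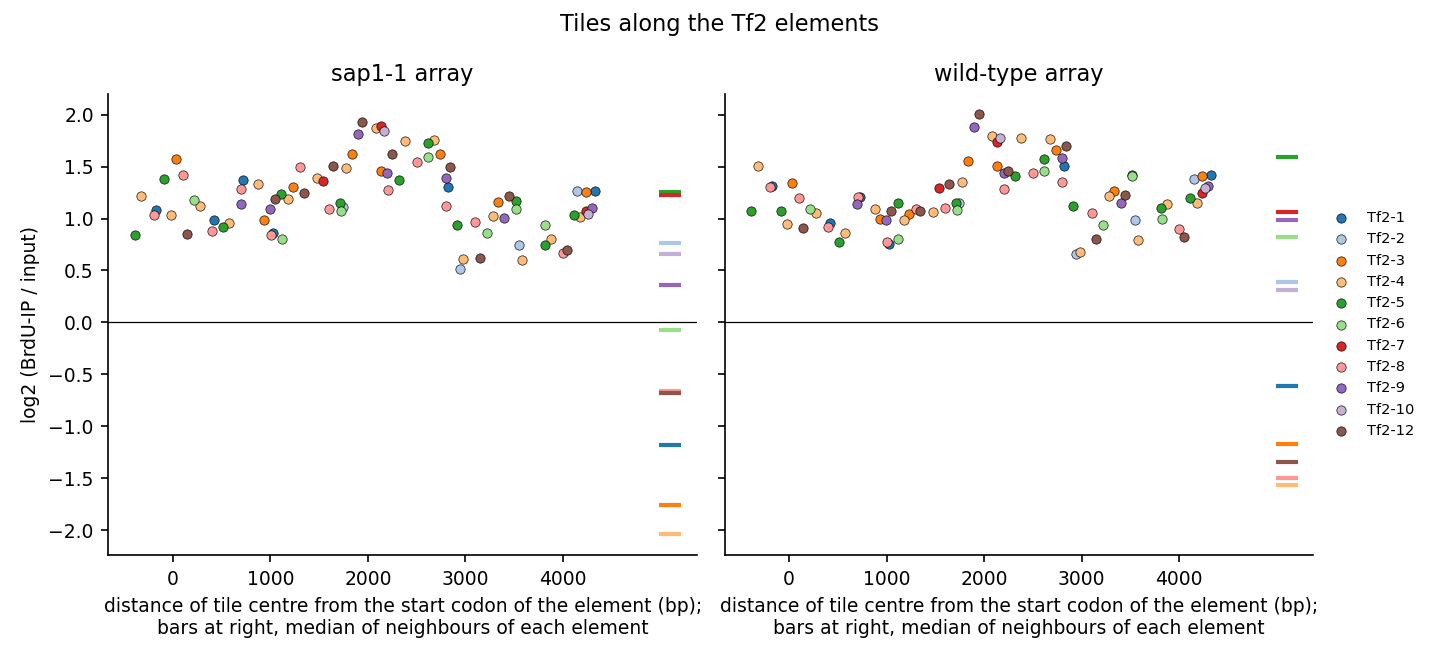
Log2 ratio of each of the 86 suffixed Tf2 tiles against the distance of its centre from the start codon of its element in bp, coloured by element, sap1-1 left and wild-type right; horizontal bars at the right edge of each panel give the median of the neighbours of each element. Medians of 500-bp steps over all elements are highest between 2000 and 2500 bp. Tiles within a step have a median SD of 0.22 in sap1-1 and 0.20 in wild-type. The bars spread from -2.04 to 1.26 in sap1-1 and from -1.56 to 1.59 in wild-type.

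Between the arrays, Tf2 tiles hardly differed. The median of sap1-1 minus wild-type over the 86 tiles was -0.02 and the SD 0.17, and no Tf2 tile reached a 2-fold difference, whereas among all arm tiles 16.1% were at least 2-fold lower and 10.8% at least 2-fold higher in sap1-1. The difference of single elements ran from -0.14 at Tf2-2 to 0.025 at Tf2-3. Around the elements the single-copy tiles differed more, from -0.62 to 0.87 as medians next to a locus (SD 0.52, against 0.07 between the Tf2 loci).

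Loci with wtf genes behaved similarly on the arms, with 18 loci of at least 2 tiles, all on chromosome III but wtf1 on chromosome I and wtf2 on chromosome II. A locus is counted here if any of its tiles lies on a wtf gene. The 18 loci hold 132 tiles, whereas 95 suffixed tiles were classed as wtf. The locus values thus include adjoining tiles, such as those on LTRs. Locus means ran from 0.70 to 1.39 (median 1.08) in sap1-1 and had a median of 1.00 in wild-type, with an SD of 0.18 and 0.19. Their surroundings ran from -0.91 to 1.55 in sap1-1 and from -1.30 to 1.88 in wild-type. The locus means were not wholly detached from the surroundings, since r across the 18 loci was 0.53 in sap1-1 and 0.86 in wild-type, while the locus means spanned 0.70 and 0.69. At Tf2 loci, r was -0.01 in sap1-1 and 0.15 in wild-type (10 loci).

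At wtf8 (6 tiles) ratios had lowest 0.43, median 1.13 and highest 1.41 in sap1-1, and 0.19, 0.91 and 1.09 in wild-type. Its mean was 1.07 ± 0.34 in sap1-1 and 0.81 ± 0.32 in wild-type beside neighbours at -0.66 and -1.30. At wtf22 (6 tiles) the mean was 1.21 ± 0.23 in sap1-1 and 1.18 ± 0.20 in wild-type beside neighbours at 1.55 and 1.54. A locus in BrdU-poor and a locus in BrdU-rich surroundings thus overlapped in their tile values. The highest wtf mean in sap1-1 was at wtf13 (10 tiles), 1.39 ± 0.32 in sap1-1 and 1.14 ± 0.29 in wild-type, and the lowest at wtf23 (10 tiles), 0.70 ± 0.67 and 0.81 ± 0.47. The 44 f and 51 m tiles of wtf genes had similar medians, 1.10 and 1.15 in sap1-1 and 1.11 and 1.03 in wild-type.

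Where f and m tiles lay within 5 kb of each other, as at wtf genes, they also read alike. Over 116 such m tiles, the m ratio exceeded the median of nearby f tiles by a median of 0.12 in sap1-1 and 0.11 in wild-type, and was above it for 66 and 65 tiles. The input of these m tiles was higher than that of the f tiles by 0.71 in sap1-1 and 0.67 in wild-type. Of the 116 m tiles, 70 lay on wtf genes or single LTRs. The f tiles on wtf genes, with a median GC content of 34%, had medians of 1.10 in sap1-1 and 1.11 in wild-type. These were near the m level and above the 0.06 and 0.26 of all f tiles. The 39 f tiles of 30% to 33% GC, of any class, also stood near the m level, at 1.04 and 0.92.

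Single LTRs lay between these patterns. Their 48 m tiles had a median of 1.07 in sap1-1 and 1.22 in wild-type, amid neighbours at -0.32 and -0.13, with r of 0.39 and 0.45. Their 19 f tiles, with a median of 2 copies and an input below that of the neighbours by -0.69 in sap1-1 and -0.78 in wild-type, had 0.62 and 0.70, with r of 0.22 and 0.66. The 194 unsuffixed tiles on single LTRs had 0.40 and 0.56, and r of 0.60 and 0.80. The median difference sap1-1 minus wild-type was -0.14 at m tiles and -0.12 at both f tiles and unsuffixed tiles on LTRs, and the values were -0.02 on Tf2. A run of 6 m tiles near an LTR and SPNCRNA.6763 on chromosome III, which has 13 matches elsewhere, averaged 1.02 ± 0.36 in sap1-1 and 1.18 ± 0.21 in wild-type beside neighbours at 0.50 and 0.04.

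Ribosomal protein genes, which mostly come in pairs on different chromosomes, made up the largest f class with 92 tiles in 68 loci. Their median ratio was -0.30 in sap1-1 and -0.07 in wild-type, below neighbours at 0.13 and 0.21. In sap1-1 49 of 68 loci, and in wild-type 54 of 68, lay below their surroundings. Locus means ran from -2.58 to 2.16 in sap1-1 and from -1.87 to 2.12 in wild-type, with r of 0.47 and 0.69 with the surroundings. The SD between loci was 0.93 in sap1-1 and 0.86 in wild-type, against 0.87 and 0.91 between their surroundings. These loci thus spread about as much as the sequence next to them, whereas Tf2 and wtf loci spread less. The Tf2 and wtf loci were limited to those of at least 2 tiles, and the ribosomal protein loci include single tiles. The spreads of these families are therefore not directly comparable. Their GC content had a median of 48%, and after correction for GC the local excess was 0.022 in sap1-1 and 0.018 in wild-type. The pair rpl301 and rpl302, for ribosomal protein L3, was chosen for display after its values were seen. It had -0.79 and -0.93 in sap1-1 and -0.67 and -0.54 in wild-type, where the surroundings were -0.34 and 1.08, and -0.45 and 0.73.

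The 3 genes for translation elongation factor 1 alpha, identical in the stretch shown above, had similar mean ratios. The surroundings of tef102 were richer in BrdU than those of tef101 and tef103. tef101 (3 tiles) averaged -1.02 in sap1-1 and -1.18 in wild-type, beside neighbours at -0.46 and -1.03. tef102 (5 tiles) averaged -0.70 and -0.90 beside 0.35 and 0.97, and tef103 (4 tiles) -0.90 and -1.14 beside -0.56 and -0.52. Of the 3, tef102 had the highest mean on both arrays and was also the furthest below its surroundings. Suffixed tiles on translation factor genes had a median GC content of 49%. Unsuffixed tiles of 48% to 52% GC had a median ratio of -0.83 in sap1-1 and -0.74 in wild-type. The part of base composition in the level of the tef genes was not tested. The elongation factor 2 gene eft201 (7 tiles) averaged -0.83 ± 0.49 in sap1-1 and -0.73 ± 0.23 in wild-type beside 0.03 and 0.29. The input of tef102 stood 2.07 above its neighbours in sap1-1 and 2.10 in wild-type, and that of eft201 3.16 and 3.08.

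The single tile of a further translation factor gene, tif51, had -0.82 in sap1-1 and -1.42 in wild-type, beside -0.44 and -0.31.

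Several other duplicated genes were also lower than their surroundings. The glyceraldehyde-3-phosphate dehydrogenase genes gpd3 and tdh1 (3 tiles each) averaged -1.35 and -1.41 in sap1-1 and -0.99 and -1.05 in wild-type. Their surroundings were 0.17 and 0.86 in sap1-1 and 0.26 and 0.69 in wild-type. The 3 divergent pairs of genes for histones H3 and H4 (2 tiles each) averaged -1.68 at hhf1/hht1, -1.88 at hhf2/hht2 and -1.40 at hht3/hhf3 in sap1-1, and -1.84, -1.71 and -1.73 in wild-type. The histone surroundings were themselves low, from -1.38 to -0.56 in sap1-1 and from -1.62 to -1.32 in wild-type. The single tile of the histone H2A gene hta2 was instead above its surroundings, at 0.46 in sap1-1 and 0.73 in wild-type beside -1.12 and -0.45. Single histone tiles varied widely, from -3.24 to 0.46 in sap1-1 and from -2.21 to 0.73 in wild-type. On each array 3 of the 7 lay above their neighbours, and the median local excess was -0.08 in sap1-1 and -0.09 in wild-type. Median GC content was 54% over the suffixed glycolytic tiles and 45.7% over the suffixed histone tiles. Unsuffixed tiles on glycolytic genes also lay below their neighbours, by a median of -1.26 in sap1-1 and -0.95 in wild-type. Those on histone genes lay above theirs, by 0.31 and 0.13. The part of base composition in these values was not tested.

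The Hsp70 genes, which differ at 13 of the 60 bases shown, had unlike mean differences between the arrays, but their tiles overlapped. ssa1 (5 tiles) had ratios from -1.85 to -0.81 (median -0.92) in sap1-1 and from -1.54 to -0.71 (median -1.31) in wild-type. ssa2 (5 tiles) had from -1.87 to -0.90 (median -1.40) in sap1-1 and from -0.92 to -0.26 (median -0.89) in wild-type. Their mean differences were 0.09 at ssa1 and -0.62 at ssa2, where neighbours differed by 0.17 and -0.01. On both arrays the tile values of the genes overlapped. The differences of single tiles overlapped too, from -0.79 to 0.64 at ssa1 and from -1.14 to -0.01 at ssa2.

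The hexose transporter genes, which import glucose and related sugars, were rich in BrdU. Their 17 tiles had a median of 1.60 in sap1-1 and 2.12 in wild-type, amid neighbours at 1.47 and 1.98. ght5 (5 tiles), which encodes a high-affinity glucose transporter, had lowest 1.34, median 1.60 and highest 2.21 in sap1-1, and 1.79, 2.14 and 2.59 in wild-type. ght8 (4 tiles) averaged 1.68 in sap1-1 and 2.22 in wild-type, ght1 (3 tiles) 1.63 and 2.04, and ght2 (3 tiles) 1.10 and 1.44, while the single-tile loci of ght6 had 2.68 and 1.74 in sap1-1 and 2.83 and 2.12 in wild-type. All 6 transporter loci were lower in sap1-1, by -0.53 to -0.15, and their neighbours differed by -0.51 to -0.19. Genes and surroundings thus differed between the arrays by similar amounts.

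**Figure D4:**
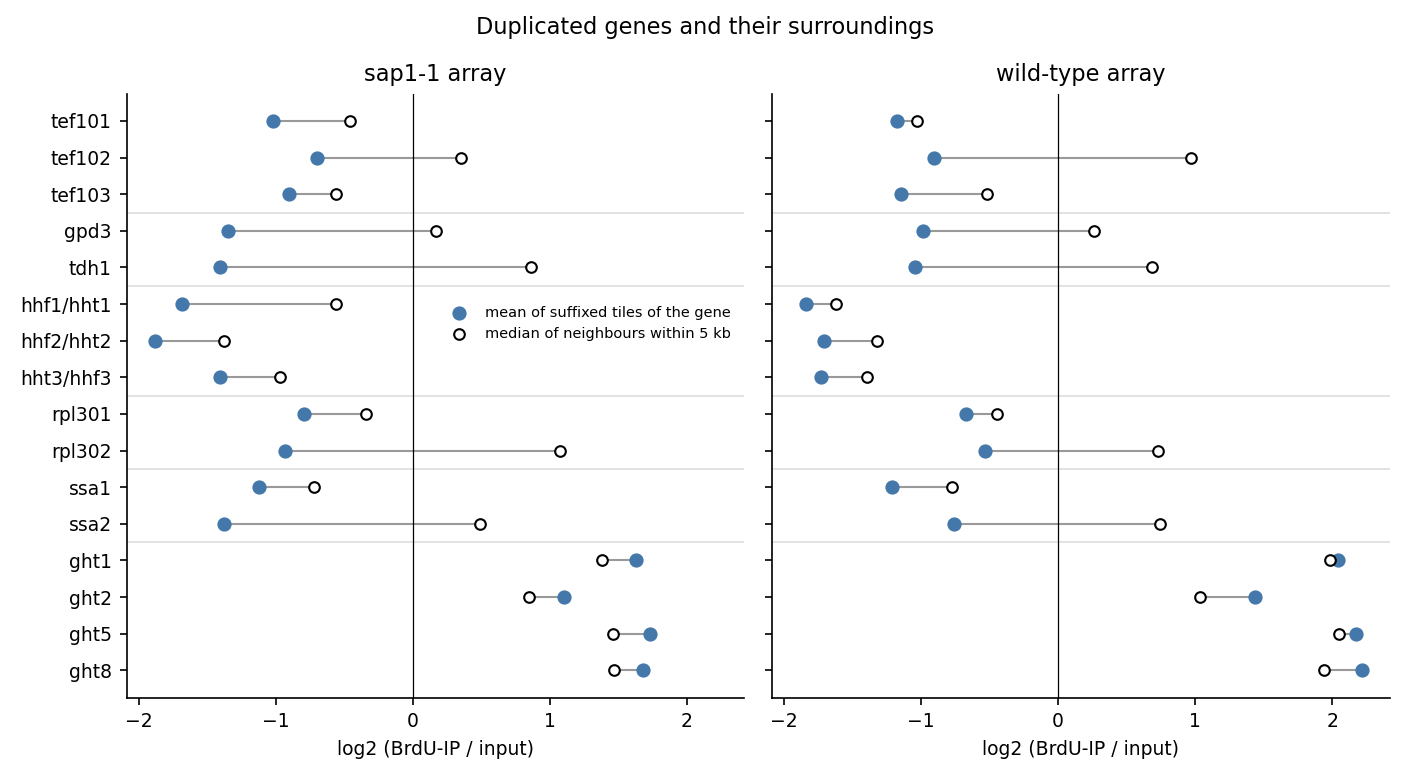
Mean log2 ratio of the suffixed tiles of 16 loci of duplicated genes (blue) and median log2 ratio of unsuffixed tiles within 5 kb of each (open), sap1-1 left and wild-type right, with families parted by grey lines. The tef genes lie between -1.18 and -0.70 with surroundings between -1.03 and 0.97, and the ght genes lie close to their surroundings.

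Genes with internal repeats gave the brightest input and among the lowest ratios. SPBPJ4664.02 (14 tiles in its longer run) had ratios with lowest -1.86, median -1.53 and highest -1.34 in sap1-1, and -1.76, -1.42 and -0.98 in wild-type. The neighbours of this run stood at 0.79 in sap1-1 and 0.51 in wild-type, above all 14 tiles. A further run of 2 tiles on the gene averaged -1.54 in sap1-1 and -1.42 in wild-type, beside lower neighbours at -0.10 and -0.77. Input of the longer run was 4.34 above its neighbours in sap1-1 and 4.35 in wild-type. Only meu7, an alpha-amylase gene, was higher at 4.47 and 4.57 among loci of at least 2 tiles. The 2 tiles of meu7 had ratios of -1.78 and -1.84 in sap1-1 and -1.91 and -2.02 in wild-type, beside neighbours at -1.13 and -1.36.

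The flocculin-related genes were less low. gsf2 (8 tiles), which encodes a cell surface flocculin, averaged -0.54 ± 0.43 in sap1-1 and -0.20 ± 0.32 in wild-type, beside 0.33 and 0.70. pfl3 (5 tiles), for a glycoprotein of the DIPSY family, averaged -0.71 ± 0.33 in sap1-1 and -0.23 ± 0.15 in wild-type, beside 0.82 and 0.92. Input at these genes was 3.96 and 3.26 above neighbours in sap1-1, and 3.81 and 3.24 in wild-type.

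Suffixed tiles differed less between the arrays than unsuffixed tiles did. The median of sap1-1 minus wild-type was -0.15 (-0.22 to -0.08) over f tiles, -0.06 (-0.10 to -0.03) over m tiles and -0.10 over the unsuffixed tiles within 5 kb of either. The SD of the difference was 0.66 over f tiles and 0.41 over m tiles, against 0.91 over those unsuffixed tiles. At least 2-fold lower in sap1-1 were 35 f tiles (9.51%) and 9 m tiles (3.42%), and 12 f tiles (3.26%) and 4 m tiles (1.52%) were at least 2-fold higher. These shares are below the 16.1% and 10.8% of all arm tiles given above. Bright unsuffixed tiles also differed less. The 791 of m-like input had an SD of 0.61, and the 123 m tiles of that brightness 0.46.

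These medians depend on how the arrays are scaled and centred. The median difference of m tiles was above 0 with within-array loess (0.10), quantile scaling (0.051) and the mean input of both arrays (0.024). With quantile scaling 19 f tiles were at least 2-fold lower and 22 at least 2-fold higher in sap1-1. When each array is centred on its most frequent ratio, every difference moves by -0.56, which made 112 f and 27 m tiles at least 2-fold lower and 2 f and 0 m tiles at least 2-fold higher in sap1-1. The shares of all arm tiles under quantile scaling and this centring are not given here. These counts therefore do not show whether suffixed tiles stand apart from other arm tiles. Differences between loci, and between a locus and its neighbours, do not change with the centring.

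**Figure D5:**
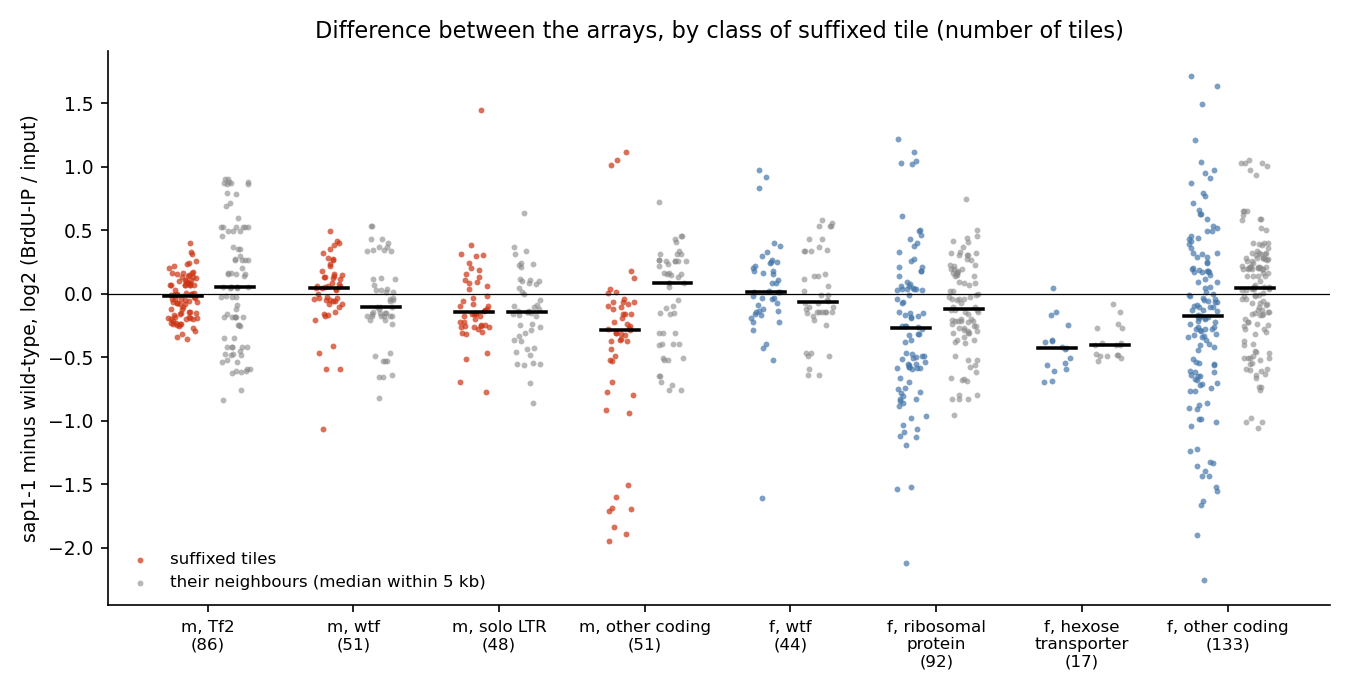
Difference in log2 ratio, sap1-1 minus wild-type, for suffixed tiles of 8 classes (m tiles red, f tiles blue) and, in grey beside each, the median difference of unsuffixed tiles within 5 kb of each tile; black lines are medians. The Tf2 tiles keep within a narrow band (SD 0.17) and the f tiles of other coding genes span a wide range (SD 0.71).

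Among loci of at least 2 tiles, the 5 with the lowest differences were all protein-coding genes outside the Tf2 and wtf classes. SPAPB2C8.01, a glycoprotein gene with internal repeats, had 7 tiles between -4.45 and -3.21 in sap1-1 and between -2.74 and -1.26 in wild-type. The tile values of the arrays did not overlap, and the mean difference was -1.86, beside -0.65 for its neighbours. The Cy5 signal of its tiles in sap1-1 was low, from 107 to 571, against a median of 833 over unsuffixed arm tiles. The 2 tiles of car1, an arginase gene, had -0.41 and -1.04 in sap1-1 and 0.95 and 0.39 in wild-type, a mean difference of -1.39 beside -0.61 for neighbours. Those of ppa1, for a catalytic subunit of the phosphatase PP2A, had -1.89 and -1.80 in sap1-1 and -0.66 and -0.36 in wild-type, a mean difference of -1.33 beside -0.33.

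SPAPB18E9.04C (5 tiles) and SPBC21H7.03C (2 tiles), an uncharacterised gene and a gene for an inositol polyphosphate phosphatase, differed by -1.08 and -1.05, beside 0.06 and -0.16 for neighbours. At SPAPB18E9.04C the tiles ran from -3.45 to -1.70 in sap1-1 and from -1.92 to -1.01 in wild-type, so the arrays overlapped. All 5 of these loci were more negative in difference than their neighbours. They were chosen for the lowest differences, so this outcome was likely in advance and is not separate evidence.

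The highest differences among those loci were at ubi4 and SPCC663.08C. The 3 tiles of ubi4 had -0.55, -0.60 and -0.57 in sap1-1 and -1.56, -1.71 and -1.62 in wild-type. Their mean difference was 1.06, beside 0.18 for neighbours, and the tiles, which share most of their sequence, lay within a narrow range on each array. SPCC663.08C, a short chain dehydrogenase gene, had -1.05, -0.61 and -0.08 in sap1-1 and -1.96, -1.59 and -1.29 in wild-type, a mean difference of 1.03 beside 0.17. The arginase gene aru1 had -0.88 and -0.58 in sap1-1 and -1.83 and -1.21 in wild-type, 0.79 beside 0.63 for neighbours. Its homologue car1 is among the lowest loci, so these arginase genes averaged -0.73 and -0.72 in sap1-1 but -1.52 and 0.67 in wild-type. The proton pump gene pma1 and the pseudogene SPCC188.10C followed, with 0.47 and 0.45 beside 0.20 and -0.52, values that turn negative with the other centring.

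Some f loci lay well above their surroundings. rrb1 (2 tiles), a gene for a WD repeat protein of ribosome biogenesis, had 2.04 and 1.79 in sap1-1 and 2.04 and 1.80 in wild-type, beside neighbours at -0.04 and 0.68. It lies next to the left-out mating-type interval and had 19 neighbours. Its input differed from theirs by 0.005 in sap1-1 and -0.17 in wild-type. The tiles had a mean GC content of 29.7%, and the part of base composition was not tested. At SPBC337.02C and nearby non-coding RNAs, 5 f tiles ran from -2.42 to 0.99 in sap1-1 and from -1.54 to 1.09 in wild-type beside -2.18 and -1.09. The lowest tile was dim, with Cy5 of 60 in sap1-1 and 79 in wild-type, against medians of 833 and 852 over unsuffixed arm tiles. The other tiles ran from 0.15 to 0.99 in sap1-1 and from 0.68 to 1.09 in wild-type. The longest f runs did not lie well above their surroundings. That of 19 tiles over yip11, cox1102 and rpn502 on chromosome I averaged 0.38 ± 0.69 in sap1-1 and 0.56 ± 0.57 in wild-type, beside 0.41 and 0.32. That of 15 tiles from SPAC27D7.09C to SPAC27D7.11C, genes of the But2 family, averaged 0.22 ± 1.13 in sap1-1 and 0.20 ± 0.64 in wild-type, below surroundings at 0.72 and 0.78.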

How the data were processed

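The authors' scanner software was Agilent Feature Extraction 10.7.3.1. According to the headers it removed background, detrended each channel over the slide and applied a linear dye factor without lowess. Signals were deposited as linear intensity. The deposited log ratio is log10 of Cy5 over Cy3 intensity, and equalled their quotient to within 3.91e-07. Each array has 42968 spots, and 11 chromosome tiles flagged as outliers on either array, none suffixed, were left out. Log2 ratios and log2 input were centred on the median of the chromosome tiles of the array. Arrays carry no read depth, so their number limits the precision.

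For the tile coordinates a build was not given in the sources used here. Tiles were placed on ASM294v3 arm by arm, at the offset where 300-bp GC content correlated best with input (r from 0.591 to 0.607, offsets from -1800 to 4360 bp). BLAST 2.17.0, limma 3.58.1, numpy 2.4.6 and pandas 2.3.3 were used, and steps were tested on simulated data. Named loci are those of at least 5 suffixed tiles; among loci of at least 2 tiles, the 5 highest and 5 lowest in difference, the 5 highest in local excess per array, and the 3 highest and lowest in input excess; histone, translation factor, glycolytic, heat shock and hexose transporter loci are given whole. The members and lists were chosen with earlier results of these data known. Alternatives changed the centring, dye balance, background, input, GC content, neighbour distance, arm limits, members, scaling and fold limit.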

Additional observations from a re-analysis of the deposited data

How the results depend on the processing

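Without replicates, an alternative was read against the interval of the median over tiles, or 1.5 times a count. Leaving out a replicate could not be done with 1 array per strain. No paired analysis was possible because each strain has a single array. Normexp used median spot signals, since the files hold no mean signals. Of the alternative values of the main results, 168 stayed within these limits, 54 moved and 8 reversed. The cause was not tested.

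Within-array loess turned the m excess to -0.31 in sap1-1 and -0.52 in wild-type, moved the f excess to -0.59 and -0.64, the differences to 0.10 (m), -0.068 (f), 0.052 (neighbours of f) and 0.049 (neighbours of m), f tiles lower in sap1-1 to 22, and r of f tiles in wild-type to 0.52. It also turned the wtf excess to -0.057 in sap1-1 and -0.0057 in wild-type. GC correction moved the f excess to 0.17 in sap1-1 and 0.072 in wild-type, the m excess in sap1-1 to 0.59, the f input excess to 0.54 and 0.60, and the ribosomal protein excess to 0.022 and 0.018. Normexp gave f excess -0.42 and -0.37, f input excess 1.49 and 1.46, m excess 0.52 in sap1-1, m input excess 3.09 and 2.98, an m difference of -0.14 and 2 m tiles higher. Quantile scaling gave differences of -0.063 (f), 0.053 (neighbours of f), 0.051 (m) and 0.13 (neighbours of m), with 19 f tiles lower, 22 f higher and 5 m lower. The mean input of both arrays gave an m difference of 0.024 and 2 m tiles higher. Centring on the mode gave differences of -0.71 (f), -0.60 (neighbours of f), -0.63 (m) and -0.61 (neighbours of m), with 112 f and 27 m tiles lower and 2 f and 0 m higher. A 1.5-fold limit gave 81 f lower, 42 f higher and 18 m lower. The share of all arm tiles under the same alternative is not given beside these counts, so they have no background.

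Neighbours within 2 kb gave r of m tiles of 0.33 in sap1-1 and 0.34 in wild-type, a neighbour difference of -0.14 beside m tiles and an m input excess of 2.76 in wild-type; within 10 kb that neighbour difference was 0.044. Tiles with at least 2 unsuffixed neighbours within 1 kb gave f excess -0.35 and -0.30, m input excess 2.42 and 2.37, r of f tiles in wild-type 0.68 and r of m tiles 0.28 and 0.27. Without Tf2, the m excess was 0.52 in sap1-1 and 0.45 in wild-type, the m input excess 2.43 and 2.32, and r 0.33 and 0.31. No named locus with a difference of at least 2-fold changed sign under the alternatives run, whereas mode centring turned pma1 to -0.091 and SPCC188.10C to -0.12.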
